A study of Mus musculus with 9 samples.

Results

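The comparison described here sets MC38 cells treated with Cu-Cys, a copper and cystine preparation, against Ctrl cells at the level of messenger RNA. It takes 3 libraries of each group, which are 6 of the 9 libraries of the study, and every gene of the deposited table that passed a filter on low counts in the fit of all 9 libraries. In all, 11949 of 16509 genes were tested. Some of them passed only through their counts in the other 3 libraries and are all but absent here. With the 6 libraries alone, 11728 genes were tested.

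MC38 is a mouse colon carcinoma line, and the 3 groups of the study share this line and differ in their treatment label. Ctrl cells carry the treatment label DMSO, whereas the methods of the study name PBS as the control. Cu-Cys cells received copper chloride combined with cystine, the disulfide of cysteine. Cadict cells received Cu-Cys together with glucose oxidase (GOx, an enzyme that oxidises glucose and makes hydrogen peroxide) and the GE11 peptide, a ligand of the EGF receptor. Cu-Cys therefore lacks both GOx and GE11. No dose and no duration of treatment is given for these libraries in the sources used here. The labels do not say whether the 3 libraries of a group come from separate cultures, so the p-values measure the spread between these libraries, which may be technical.

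Copper is an essential cofactor that becomes toxic in excess. Cells take copper up through Slc31a1 (CTR1), hand it to chaperones and export it through Atp7a and Atp7b, while metallothioneins bind surplus copper and zinc and are switched on by the metal-sensing factor MTF1. Reactive metal ions also engage NRF2, which drives genes of glutathione and thioredoxin metabolism, and copper that reaches the mitochondria binds lipoylated enzymes of the citric acid cycle, the trigger of cuproptosis. Interferons and NF-kappa-B drive antiviral and inflammatory genes, and mesenchymal-like tumour cells also make collagens and other extracellular matrix.

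Values below are CPM, reads scaled to a common library size after correction by TMM, a method that sets the typical gene equal between libraries. The Ctrl libraries held 18154400 to 18293056 counts and the Cu-Cys libraries 17974309 to 18139276, and their TMM factors were 1.26 to 1.27 and 1.21. A count of 0 allows up to 3 counts. Fold changes and p-values come from the quasi-likelihood test of edgeR, with Benjamini-Hochberg adjustment across the 11949 genes. A gene is said to have risen or fallen at an adjusted p of at most 0.05, and is said to be called when it also changed at least 2-fold at an adjusted p of at most 0.001. In bulk RNA, fewer cells with a transcript and less of it in each cell cannot be told apart. Of the markers of an epithelial tumour, Epcam had 0 counts in each of the 6 libraries and Krt8, Krt18 and Vil1 lay under the filter, whereas Vim stood at 2919 TPM (a level normalized for transcript length and library size) in Ctrl cells. Cdh1 and Krt19, epithelial as well, passed the filter at 2.52 and 2.25 TPM in Ctrl cells, and Cdh1 fell with Cu-Cys (log2 fold change -0.64, adjusted p = 0.000591). Ptprc, the pan-leukocyte marker, had at most 4 counts in any of the 6 libraries, and the macrophage marker Cd68 passed the filter at 7.05 TPM in Ctrl cells.

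Cu-Cys libraries differed from Ctrl libraries by many small shifts and few large changes. At an adjusted p of 0.05, 2701 genes rose (22.6% of those tested) and 2680 fell (22.4%). The median log2 fold change over the genes tested was 0.01, a value that TMM holds near 0 by design. Of the genes that rose, 2433 (90.1%) did so by less than 1.5-fold. Of those that fell, 1854 (69.2%) did. The large changes leaned downward, since 20 genes were called higher (0.167% of those tested) and 176 were called lower (1.47%). In each of the 196 called genes the Ctrl and Cu-Cys libraries did not overlap, as was the case for 31.4% of all tested genes in the upward direction and 29.9% in the downward direction. Those with a mean over the 6 libraries of 5 CPM or more were 12 higher and 70 lower genes. The balance of small shifts moved with the scaling: rises made up 50.2% of the genes past 0.05 here, 56.4% with DESeq2 size factors, 34.9% with library totals, 33.9% with limma on the log2 of FPKM + 1, and 20.3% or 21.5% with limma on the log2 of TPM + 1 or + 0.1. The median of all genes lay at -0.12 and -0.13 on the 2 TPM scales, so a list median on the TPM + 1 scale is to be set beside -0.12.

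**Figure D1:**
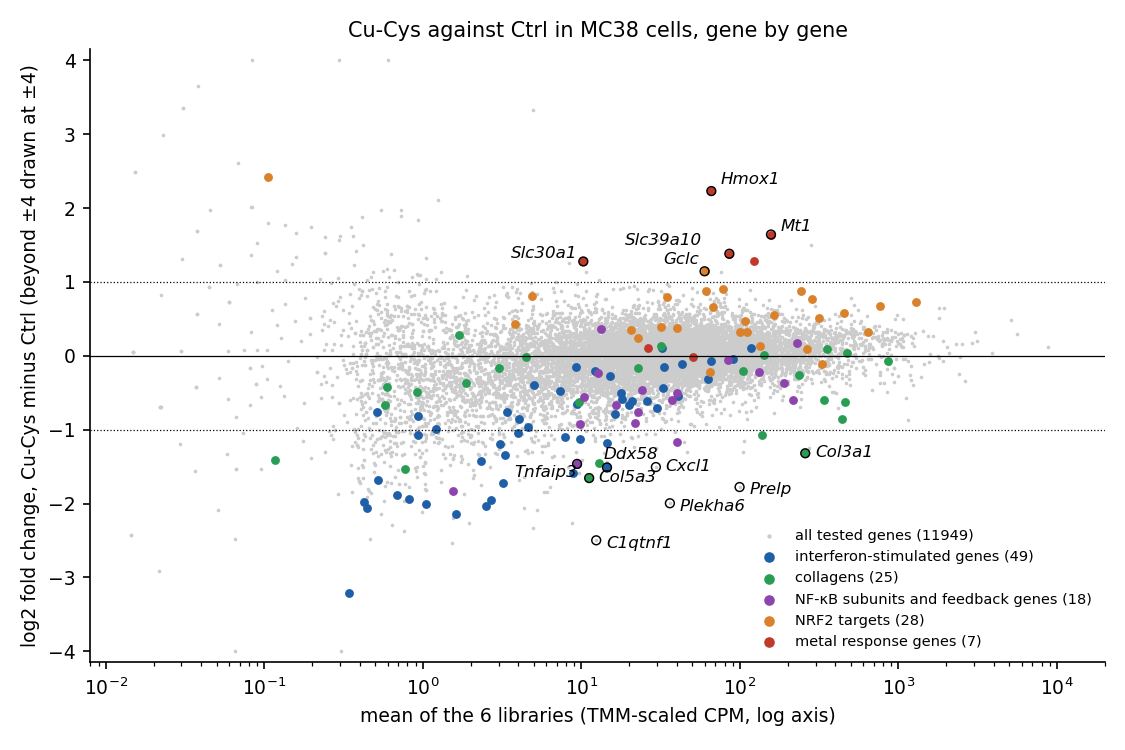
Log2 fold change of Cu-Cys against Ctrl (vertical axis, values beyond 4 or -4 drawn at that limit) against the mean of the 6 libraries in TMM-scaled CPM (log axis) for each tested gene, with dotted lines at 2-fold. Metal response genes and NRF2 targets lie mostly above 0, whereas interferon-stimulated genes, NF-kappa-B genes and collagens lie mostly below; 25 genes with a mean under 0.008 CPM are not drawn.

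Metal response genes were among the largest rises. The promoters of 3 members are shown because they carry matches to the metal response element, the short core to which MTF1 binds. The windows run from 250 bases before to 50 after the start of transcription, come from RefSeq on GRCm38.p6, are printed 5′ to 3′ along the gene, and have the letters TGCGCNC or TGCACNC on either strand in capitals. Mt1 is at chr8:94178839-94179138 on the plus strand, Mt2 at chr8:94172368-94172667 on the plus strand and Slc30a1 at chr1:191906531-191906830 on the plus strand.
Mt1: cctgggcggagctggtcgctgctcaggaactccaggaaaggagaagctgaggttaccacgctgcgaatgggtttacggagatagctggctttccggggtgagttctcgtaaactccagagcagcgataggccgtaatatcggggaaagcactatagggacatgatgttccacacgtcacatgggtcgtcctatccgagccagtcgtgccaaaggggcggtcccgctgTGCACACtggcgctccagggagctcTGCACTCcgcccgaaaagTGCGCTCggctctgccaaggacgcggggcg
Mt2: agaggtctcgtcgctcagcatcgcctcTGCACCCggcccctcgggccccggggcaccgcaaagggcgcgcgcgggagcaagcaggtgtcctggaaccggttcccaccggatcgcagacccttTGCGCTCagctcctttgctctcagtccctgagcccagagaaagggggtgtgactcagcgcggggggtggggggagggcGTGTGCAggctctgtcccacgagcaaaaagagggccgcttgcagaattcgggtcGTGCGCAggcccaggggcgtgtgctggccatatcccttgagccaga
Slc30a1: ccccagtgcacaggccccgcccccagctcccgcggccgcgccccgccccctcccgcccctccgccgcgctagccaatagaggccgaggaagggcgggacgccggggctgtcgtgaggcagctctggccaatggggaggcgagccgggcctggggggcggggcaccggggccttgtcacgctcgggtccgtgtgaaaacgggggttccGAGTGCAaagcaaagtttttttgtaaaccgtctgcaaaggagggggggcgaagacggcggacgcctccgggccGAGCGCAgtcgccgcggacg

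Mt1 holds 3 matches, Mt2 4 and Slc30a1 2. The core is common, found in 25.7% of 32851 promoter windows and at 40.9% of the 9547 tested genes that have a window. At 7 of the 17 called-higher genes with a window it was present, which is 41.2%, near that background. Slc39a10, whose mRNA also rose, has no match in either of its windows.

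Mt1 and Mt2 encode the metallothioneins that sequester copper and zinc. Mt1 read 76.1, 80.3 and 72.1 CPM in the Ctrl libraries and 236, 236 and 241 CPM in the Cu-Cys libraries, a 3.12-fold rise (log2 fold change 1.64 ± 0.09, SE, adjusted p = 7.81e-09). Mt2 read 68.8, 74.7 and 69.2 against 175, 174 and 170.1 CPM, a 2.44-fold rise (1.29 ± 0.09, adjusted p = 7.01e-08). For both genes the lowest Cu-Cys library lay far above the highest Ctrl library. Slc30a1 (ZnT1), which exports zinc across the plasma membrane, read 5.93, 5.45 and 6.63 against 14.8, 15.7 and 13.1 CPM (log2 1.28 ± 0.10, adjusted p = 3.89e-07). Slc39a10 (ZIP10), a zinc importer, read 48.4, 46.0 and 48.2 against 117, 131 and 124 CPM (1.38 ± 0.06, adjusted p = 6.36e-10), so that a zinc exporter and a zinc importer rose side by side. Beyond Slc39a10, Slc39a6 rose (0.77, adjusted p = 2.71e-08), and 6 of the 11 tested Slc39 importers rose with none falling. Of the 6 tested Slc30 transporters 2 rose and 1 fell. Mtf1 itself stood at a log2 fold change of 0.11 (adjusted p = 0.182).

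Hmox1, heme oxygenase 1, which is induced by metals and oxidants, had the largest rise among genes whose mean was 5 CPM or more. It read 24.4, 23.2 and 22 CPM in Ctrl libraries and 96.5, 109 and 121 CPM in Cu-Cys libraries. The means of 23.2 ± 1.21 and 109 ± 12.2 CPM (SD, n = 3 each) differ 4.69-fold, a log2 fold change of 2.23 ± 0.08 (adjusted p = 1.22e-10). In all, 5 of the 7 tested metal response genes rose, and the median log2 fold change of the list was 1.29. The 5 were Mt1, Mt2, Slc30a1, Slc39a10 and Hmox1, and Hmox1 is counted again among the NRF2 targets below. This count of rises does not measure the activity of MTF1. In Cadict libraries, set against the same Ctrl libraries, Hmox1 stood at a log2 fold change of 9.65, Mt1 at 4.11, Mt2 at 4.38 and Slc30a1 at 4.29. Slc39a10 went the other way there, at -2.18, and its log2 difference of Cadict from Cu-Cys was -3.56.

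**Figure D2:**
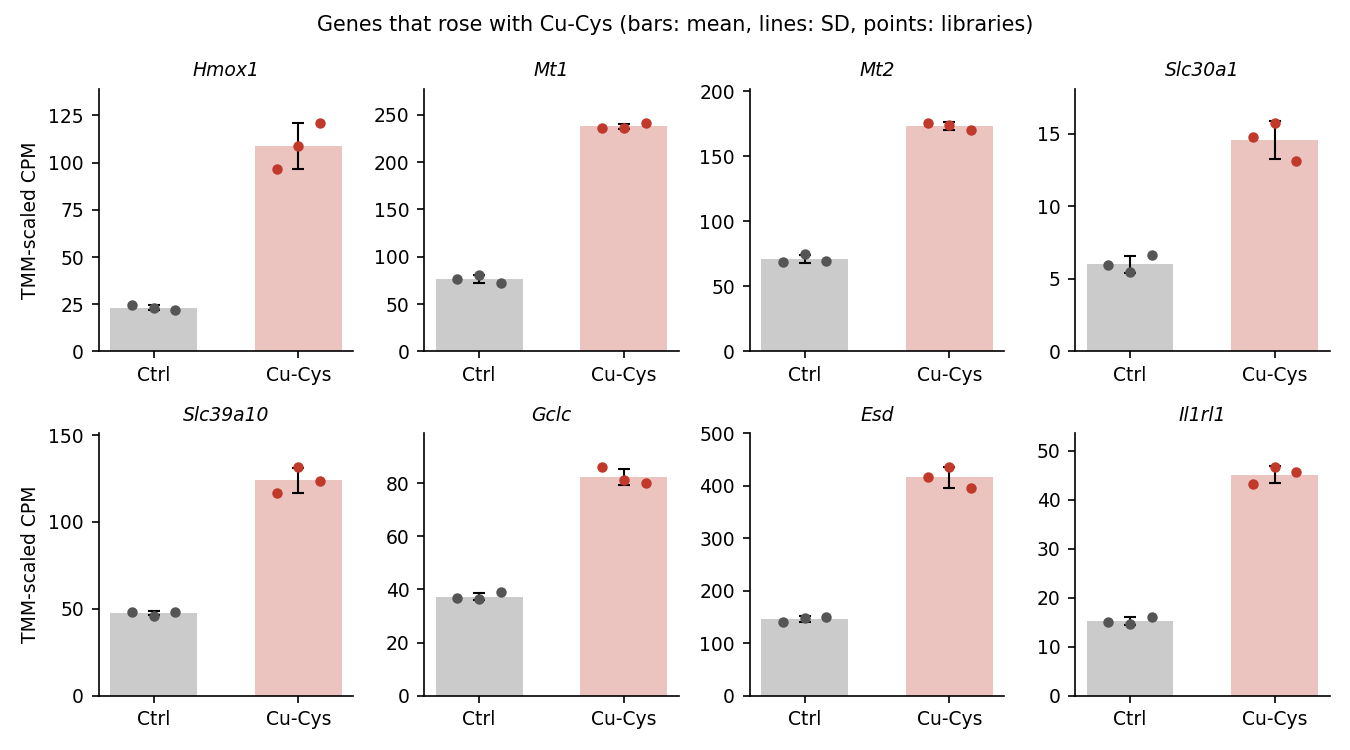
TMM-scaled CPM of 8 genes that rose with Cu-Cys, 1 panel a gene, with a point for each Ctrl and Cu-Cys library (n = 3 a group), a bar at the group mean and a line for the SD. In each panel the Cu-Cys points lie above the Ctrl points, as for Hmox1 at 96.5 to 121 against 22 to 24.4 CPM.

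NRF2 targets rose as a group by smaller steps. Of 28 tested members 23 rose and 1 fell, with a median log2 fold change of 0.53, and with limma on the log2 of TPM + 1 the counts were 19 and 2. The promoters of Gclm and Srxn1 are shown because both genes rose and both windows hold the antioxidant response element core TGACNNNGC, in capitals here, on either strand. The core is found in 12.4% of all promoter windows and at 17% of tested genes with a window, and at 9 of the 24 list members with a window (37.5%). Gclm is at chr3:122245307-122245606 and Srxn1 at chr2:152105274-152105573, both on the plus strand of GRCm38.p6, from RefSeq.
Gclm: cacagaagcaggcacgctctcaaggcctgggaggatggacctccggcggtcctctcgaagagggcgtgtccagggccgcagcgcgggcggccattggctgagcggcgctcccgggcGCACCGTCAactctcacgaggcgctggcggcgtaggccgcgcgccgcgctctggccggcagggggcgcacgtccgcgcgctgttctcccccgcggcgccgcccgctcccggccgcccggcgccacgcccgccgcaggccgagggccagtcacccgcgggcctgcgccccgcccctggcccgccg
Srxn1: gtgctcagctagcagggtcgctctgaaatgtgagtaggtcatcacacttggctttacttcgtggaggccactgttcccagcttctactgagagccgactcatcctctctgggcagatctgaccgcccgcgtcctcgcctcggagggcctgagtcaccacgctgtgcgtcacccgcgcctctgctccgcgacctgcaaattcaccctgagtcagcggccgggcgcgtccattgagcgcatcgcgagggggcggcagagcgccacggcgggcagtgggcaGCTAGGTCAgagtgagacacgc

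After Hmox1, Gclc had the largest rise past the test in this group. Gclc, the catalytic subunit of glutamate-cysteine ligase, read 36.7, 36.2 and 38.8 CPM against 85.9, 81.1 and 80.1 CPM, a 2.21-fold rise (log2 1.14 ± 0.06, adjusted p = 1.08e-08). Its modifier subunit Gclm read 39.2, 43.3 and 46.0 against 73.4, 79.8 and 82.8 CPM (0.88 ± 0.07, adjusted p = 2.06e-07). Srxn1, sulfiredoxin, which repairs oxidised peroxiredoxins, read 52.7, 57.3 and 53.7 against 102, 103 and 101 CPM (0.90 ± 0.05, adjusted p = 1.98e-08). None of these 3 genes had overlapping groups. Further rises were found for the pentose phosphate enzyme Pgd (0.88), the quinone reductase Nqo1 (0.79), thioredoxin reductase Txnrd1 (0.77), the ferritin chains Ftl1 (0.73) and Fth1 (0.67), malic enzyme Me1 (0.66), the autophagy receptor Sqstm1 (0.58), glutathione reductase Gsr (0.55) and thioredoxin Txn1 (0.51). Slc7a11, the cystine importer of system xc-, is also an NRF2 target and read 127, 125 and 129 against 135, 147 and 136 CPM. These groups did not overlap, but its log2 fold change of 0.13 ± 0.07 did not pass the test (adjusted p = 0.137). Catalase (Cat) fell by 0.22. The factor itself, Nfe2l2, stood at -0.10 and its repressor Keap1 at 0.14, neither past the test.

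Several called rises belong to none of these lists. Esd, which hydrolyses S-formylglutathione, read 140.2, 149 and 151 CPM against 418, 435 and 396 CPM, a 2.84-fold rise (log2 1.51 ± 0.06, adjusted p = 6.36e-10). Il1rl1, the receptor of interleukin 33, read 15.1, 14.6 and 16 against 43.1, 46.6 and 45.7 CPM, a 2.96-fold rise (1.57 ± 0.08). Ptgs2 (COX-2), which makes prostaglandins, read 47.1, 50.3 and 44.4 against 98.0, 113 and 102 CPM (1.14 ± 0.09). Each of these 3 genes rose further in Cadict libraries, at 3.33, 3.43 and 4.85 against Ctrl. Apln, the peptide ligand apelin, rose 2.38-fold with Cu-Cys (1.25 ± 0.11) and stood at -0.63 in Cadict libraries. The placental hormone gene Prl2c2 read 0.606, 1.21 and 0.872 against 8.12, 9.56 and 9.39 CPM, the largest rise among called genes that had counts in both groups. Prl2c3, at 0 counts in Ctrl libraries, was at least 4.56-fold higher (against a limit of 3 counts a library). These Prl2c genes are near-identical copies among which the counting may have split reads.

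Of 17 tested copper transporters and chaperones 8 rose and 1 fell, with a median log2 fold change of 0.24. The largest rise was that of the cytochrome oxidase assembly factor Sco2 (0.99, adjusted p = 0.000307), and the fall was that of the metalloreductase Steap4 (-1.14, adjusted p = 0.0305), a low gene at 0.562, 0.649 and 0.523 against 0.277, 0.183 and 0.319 CPM. The importer Slc31a1 rose by a log2 of 0.32 (adjusted p = 0.000449), the metalloreductase Steap3 by 0.57, the cytochrome oxidase copper chaperone Cox11 by 0.41 and the copper-zinc enzyme Sod1 by 0.39. The exporter Atp7a stood at -0.07 and the chaperone Atox1 at 0.07, neither past the test. Of the 14 tested genes of lipoylation and cuproptosis 5 rose and 1 fell, with a median of 0.15. The ferredoxin Fdx1, an upstream regulator of lipoylation, rose by 0.33 (adjusted p = 0.0236) and the pyruvate dehydrogenase subunit Dlat by 0.20 (adjusted p = 0.00237), whereas lipoyl synthase Lias stood at 0.13 (adjusted p = 0.0993). On the TPM + 1 scale, 3 copper genes and 2 lipoylation genes rose.

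Disulfidptosis, death through disulfide bonds between actin-binding proteins, is fed by cystine. Of 16 tested genes of cystine uptake and disulfidptosis 4 rose and 3 fell, and the median was 0.01, negative with library totals, on the TPM and FPKM scales and without Ctrl library 1 or Cu-Cys library 2. Of 19 tested actin cytoskeleton genes 1 rose and 7 fell, among them drebrin Dbn1 (-0.76), vinculin Vcl (-0.59) and talin Tln1 (-0.32). Filamin Flna stood at -0.03 and beta-actin Actb at 0.00, neither past the test.

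Interferon-stimulated genes fell together. The table held 67 list members, and of the 49 tested 40 fell and 0 rose, with 17 called lower. Their median log2 fold change was -0.81, and it lay between -0.97 and -0.61 under the alternatives run. The promoters of 3 members are shown because each gene was called lower and each window holds the interferon-stimulated response element core, GAAA followed by any 2 bases and GAAA again, in capitals here, on either strand. Ddx58 is at chr4:40239776-40240075 on the minus strand, Ifi203 at chr1:173942443-173942742 on the minus strand and Gbp2 at chr3:142620413-142620712 on the plus strand, all from RefSeq on GRCm38.p6 and printed along the gene.
Ddx58: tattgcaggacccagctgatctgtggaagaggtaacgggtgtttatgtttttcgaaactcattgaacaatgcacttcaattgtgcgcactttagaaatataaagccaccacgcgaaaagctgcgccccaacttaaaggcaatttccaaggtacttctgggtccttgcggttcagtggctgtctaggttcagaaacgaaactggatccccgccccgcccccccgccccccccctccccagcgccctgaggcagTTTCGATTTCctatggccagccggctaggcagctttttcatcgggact
Ifi203: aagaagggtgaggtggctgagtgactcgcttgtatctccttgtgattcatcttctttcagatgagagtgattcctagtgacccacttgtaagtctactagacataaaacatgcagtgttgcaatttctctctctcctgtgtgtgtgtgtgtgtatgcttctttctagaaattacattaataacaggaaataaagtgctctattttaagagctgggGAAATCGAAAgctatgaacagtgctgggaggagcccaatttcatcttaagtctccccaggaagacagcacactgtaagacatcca
Gbp2: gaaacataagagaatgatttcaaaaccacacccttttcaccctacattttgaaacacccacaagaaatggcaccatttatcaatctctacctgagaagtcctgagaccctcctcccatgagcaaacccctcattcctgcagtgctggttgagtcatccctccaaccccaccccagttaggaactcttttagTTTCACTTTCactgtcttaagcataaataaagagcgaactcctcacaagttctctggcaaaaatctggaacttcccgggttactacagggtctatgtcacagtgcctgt

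This core is rare, in 3.4% of all promoter windows and at 3.7% of tested genes with a window. It was found at 22 of the 39 list members with a window (56.4%). Of these 22, 19 fell and 11 were called, with a median log2 fold change of -1.08. Of the 17 without the core, 12 fell and 3 were called, with a median of -0.50. Of the 10 without a window 9 fell, with a median of -0.93. Among all called-lower genes with a window, 18 of 125 (14.4%) held it, against 0 of the 17 called higher. The gamma-activated sequence TTCNNNGAA, in 8.3% of windows, was found at 12 of the 39 members, of which 9 fell with a median of -0.66. No test was made of these splits.

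The sensors of foreign RNA and DNA were among the largest falls. Ddx58 (RIG-I), which detects viral RNA, read 22.8, 21.6 and 20 CPM in Ctrl libraries and 7.38, 7.55 and 7.66 CPM in Cu-Cys libraries, 2.85-fold lower (log2 -1.51 ± 0.09, adjusted p = 2.71e-08). Ifi203, a nuclear DNA-binding protein of the interferon-inducible p200 family, read 13.5, 12.9 and 13.6 against 4.57, 4.25 and 4.52 CPM, 2.99-fold lower (-1.58 ± 0.10, adjusted p = 4.46e-08). The 3 Cu-Cys libraries of each gene agreed closely and none came near a Ctrl library. Further falls past 2-fold were found for the ADP-ribosyltransferase Parp14 (-1.18), the restriction factor Trim30a (-1.13), the RNA sensor Ifih1 (MDA5, -1.10) and the guanylate-binding protein Gbp2 (-1.34). Irf7, the factor that amplifies interferon production, read 1.12, 1.34 and 1.44 against 0.369, 0.412 and 0.228 CPM (-1.93 ± 0.29, adjusted p = 8.75e-05). Irf1, a transcription factor of the interferon response, fell by 0.54. Of the 9 members not past the test, Ifit2 stood at -0.07 and Bst2 at 0.11. Gbp and Tgtp members are near-identical copies and uncertain as single genes.

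A list that shares members such as Irf7 with the interferon-stimulated list holds interferon receptors, JAK kinases and IRF factors. Of its 23 tested members 13 fell and 1 rose, with a median of -0.31. The receptor chains Ifnar1 (-0.37) and Ifngr1 (-0.31) and the kinases Jak2 (-0.52) and Tyk2 (-0.60) were among them, while the phosphatase Ptpn2, which switches the pathway off, rose by 0.21. Of 22 tested genes of class I antigen presentation 15 fell and 0 rose, with a median of -0.36. Tap2, a subunit of the pump that brings peptides into the endoplasmic reticulum, read 33.4, 31.2 and 28.7 against 14.6, 14.1 and 15.4 CPM (-1.08 ± 0.08, adjusted p = 1.01e-07). The immunoproteasome subunits Psmb9 (-1.66) and Psmb8 (-0.83), the partner transporter Tap1 (-0.80) and the peptide-loading factor Tapbp (-0.62) fell as well. The classical class I heavy chains H2-K1 and H2-D1 fell by 0.21 and 0.19, the heavy chains H2-Q4, H2-T23, H2-T22 and H2-M3 by 0.58, 0.57, 0.55 and 0.52, and B2m stood at 0.01. In Cadict libraries H2-K1 stood at 1.29 and H2-D1 at 1.56 against the same Ctrl libraries.

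**Figure D3:**
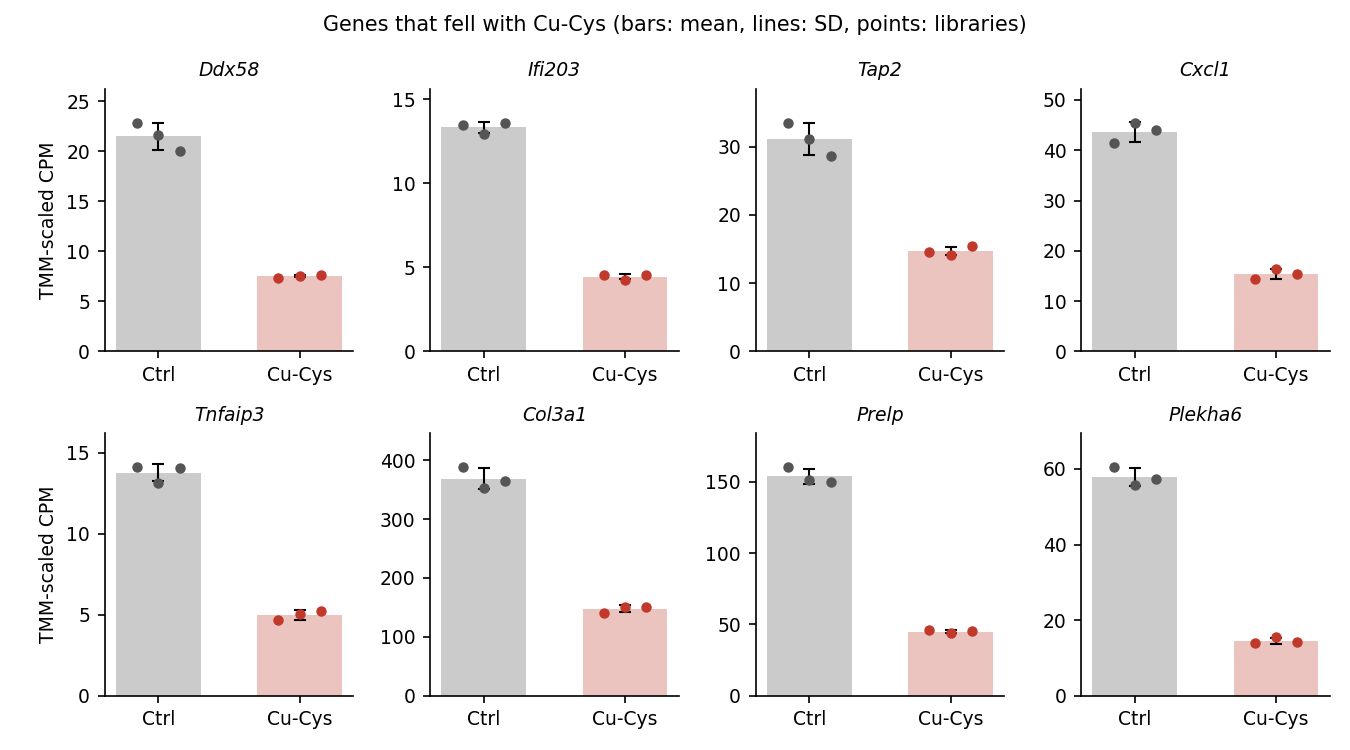
TMM-scaled CPM of 8 genes that fell with Cu-Cys, 1 panel a gene, with a point for each Ctrl and Cu-Cys library (n = 3 a group), a bar at the group mean and a line for the SD. In each panel the Cu-Cys points lie below the Ctrl points, as for Ddx58 at 7.38 to 7.66 against 20 to 22.8 CPM.

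NF-kappa-B target genes and secreted cytokines made up a further block of falls. Of 18 tested NF-kappa-B subunits and feedback genes 14 fell and 2 rose, with a median of -0.57. The promoter of the chemokine Cxcl1 is shown because the gene was called lower and its window, chr5:90890995-90891294 on the plus strand of GRCm38.p6 from RefSeq, holds the NF-kappa-B core, GGGA followed by any 2 bases and TTCC, on either strand, in capitals; its matches on the opposite strands overlap. The core is in 1.5% of windows and at 1.6% of tested genes with a window. It was found at 2 of the 14 list members with a window, a list that does not hold Cxcl1. Among called-lower genes with a window, 3 of 125 (2.4%) held it, near that background.
Cxcl1: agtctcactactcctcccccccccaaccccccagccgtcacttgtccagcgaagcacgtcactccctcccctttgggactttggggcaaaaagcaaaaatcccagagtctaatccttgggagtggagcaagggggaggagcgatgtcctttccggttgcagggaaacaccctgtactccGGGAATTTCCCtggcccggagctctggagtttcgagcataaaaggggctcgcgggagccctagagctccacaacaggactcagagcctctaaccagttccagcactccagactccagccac

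Cxcl1, which draws in neutrophils, read 41.5, 45.4 and 44.0 against 14.4, 16.4 and 15.4 CPM (-1.51 ± 0.10, adjusted p = 6.68e-08). Ccl2, which draws in monocytes, read 369, 399.5 and 385 against 153, 167 and 166 CPM (-1.25 ± 0.07, adjusted p = 7.44e-09). Tnfaip3 (A20), a ubiquitin-editing brake on NF-kappa-B, read 14.1, 13.2 and 14.1 against 4.66, 5.08 and 5.24 CPM (-1.46 ± 0.09, adjusted p = 2.45e-08). In none of the 3 genes did the groups overlap. Other feedback genes that fell were Nfkbiz (-1.16), Bcl3 (-0.92), Traf1 (-0.91) and the inhibitor Nfkbia (-0.59), whereas the subunit Rela stood at -0.06 (adjusted p = 0.39). Of 24 tested chemokines, cytokines and colony-stimulating factors 12 fell and 2 rose, with a median of -0.50, Ccl7 (-1.06) and Lif (-0.86) among the falls and Il11 (0.64) and Tnfsf9 (0.41) the rises. Csf2 (GM-CSF) read 1.47, 1.99 and 1.44 against 0.461, 0.503 and 0.41 CPM (-1.82, adjusted p = 0.000469). Outside the list, the nitric oxide synthase Nos2 (-1.77), the lipopolysaccharide-binding protein Lbp (-2.09) and complement C3 (-1.16 ± 0.05, at 150.2, 145 and 145 against 66.4, 63.8 and 67.1 CPM) were called lower. On the TMM scale, Cadict did not share all of these levels. Its log2 fold changes against the same Ctrl libraries were -2.5 for Ccl2, -0.23 for Tnfaip3, 0.05 for C3 and 1.69 for Csf2. These Cadict values were not computed under other scalings.

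Among genes of the extracellular matrix, falls outnumbered rises. Of 25 tested collagens 11 fell and 0 rose, with a median of -0.43. Col3a1, a chain of type III collagen, read 388, 353 and 365 CPM in Ctrl libraries and 141, 152 and 150.4 CPM in Cu-Cys libraries, 2.49-fold lower (-1.32 ± 0.06, adjusted p = 1.14e-09). Col1a1 read 20.3, 19.2 and 17.4 against 6.64, 6.45 and 7.8 CPM (-1.45 ± 0.11, adjusted p = 1.39e-07), and Col5a3 read 18, 17 and 16 against 5.72, 5.62 and 4.83 CPM (-1.65 ± 0.10, adjusted p = 1.70e-08). The groups of all 3 chains stood well apart. Col6a4, at a mean of 1.16 against 0.397 CPM, was also called lower (-1.53). Col5a1 (-1.07), Col1a2 (-0.85) and Col6a1 (-0.62) also fell, whereas the basement membrane chain Col4a1 stood at 0.04 and Col6a3 at -0.06, neither past the test. Col3a1 lay at -3.81 in Cadict libraries against the same Ctrl libraries.

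Other matrix classes moved both ways. Of 12 tested laminins and basement membrane proteins 7 fell and 1 rose (median -0.29), with Lamb3 at -1.22, Lama5 at -0.60 and Lamb1 the rise at 0.50. Of 32 tested matrix glycoproteins, proteoglycans and matricellular proteins 17 fell and 4 rose (median -0.30). Sned1 (-1.48), Emilin1 (-1.35), Ccn4 (-0.78) and Sparc (-0.32) fell, Ccn2 (CTGF), a matricellular YAP target, rose by 0.91, and fibronectin Fn1 stood at 0.00. Of 51 tested crosslinking and remodelling enzymes and inhibitors 25 fell and 9 rose (median -0.26), with the lysyl oxidase Loxl1 (-1.15), the metalloproteinase Mmp28 (-1.08) and the collagen prolyl hydroxylase P4ha3 (-0.98) lower, and the metalloproteinase inhibitor Timp1 (0.79) higher. Outside these lists, Prelp, a leucine-rich proteoglycan that anchors basement membrane, read 160.2, 152 and 150.2 against 45.9, 43.7 and 45.3 CPM, 3.42-fold lower (-1.78 ± 0.06, adjusted p = 1.06e-10). Of the 4 tested fibroblast markers Col1a1, Col1a2 and Pdgfra fell, and Lum and Thy1 were at or near 0 counts, so the summed level of these markers was 618 to 645 CPM in Ctrl and 341 to 349 CPM in Cu-Cys libraries. The part of any mixture of cells in these falls was not tested.

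Further large falls had no common list. C1qtnf1, a secreted protein related to C1q and TNF, read 22, 19.4 and 21.9 against 3.83, 3.43 and 3.92 CPM, 5.64-fold lower (-2.5 ± 0.12, adjusted p = 1.67e-09). Scara5, a ferritin receptor, was 4.82-fold lower (-2.27 ± 0.10). Plekha6, a protein with a pleckstrin homology domain, read 60.4, 55.8 and 57.2 against 13.8, 15.5 and 14.2 CPM, 3.99-fold lower (-2.0 ± 0.07, adjusted p = 1.22e-10). The levels of these genes in Cu-Cys libraries were tight and far under those in Ctrl. Plekha6 lay at -1.94 in Cadict libraries, close to its Cu-Cys value, and C1qtnf1 lower still at -4.66. The protease inhibitor Serpinb1a (-1.84), the stromal glycoprotein Cd248 (-1.62), the orphan receptor Gpr153 (-1.58) and the microtubule-binding protein Mapt (-1.50) were also among the 15 largest falls of called genes averaging 5 CPM or more. Niban1, at -1.84, stood at -0.17 in Cadict libraries (adjusted p = 0.141). Islr, at 0 counts in the Cu-Cys libraries and 0.692, 0.563 and 0.567 CPM in Ctrl libraries, was at least 4.39-fold lower (against the limit of 3 counts a library).

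Lists of the interferon, MHC class I and JAK groups held 19 of the 176 called-lower genes among 88 tested members. The matrix and integrin lists together held 15 among 139, and the cytokine and NF-kappa-B lists 9 among 42, beside 1.47% of all tested genes. Of the 20 called-higher genes, 6 were among the 34 tested members of the metal and NRF2 lists. In all, 14 higher and 130 lower genes belonged to none of the gene lists compiled.

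**Figure D4:**
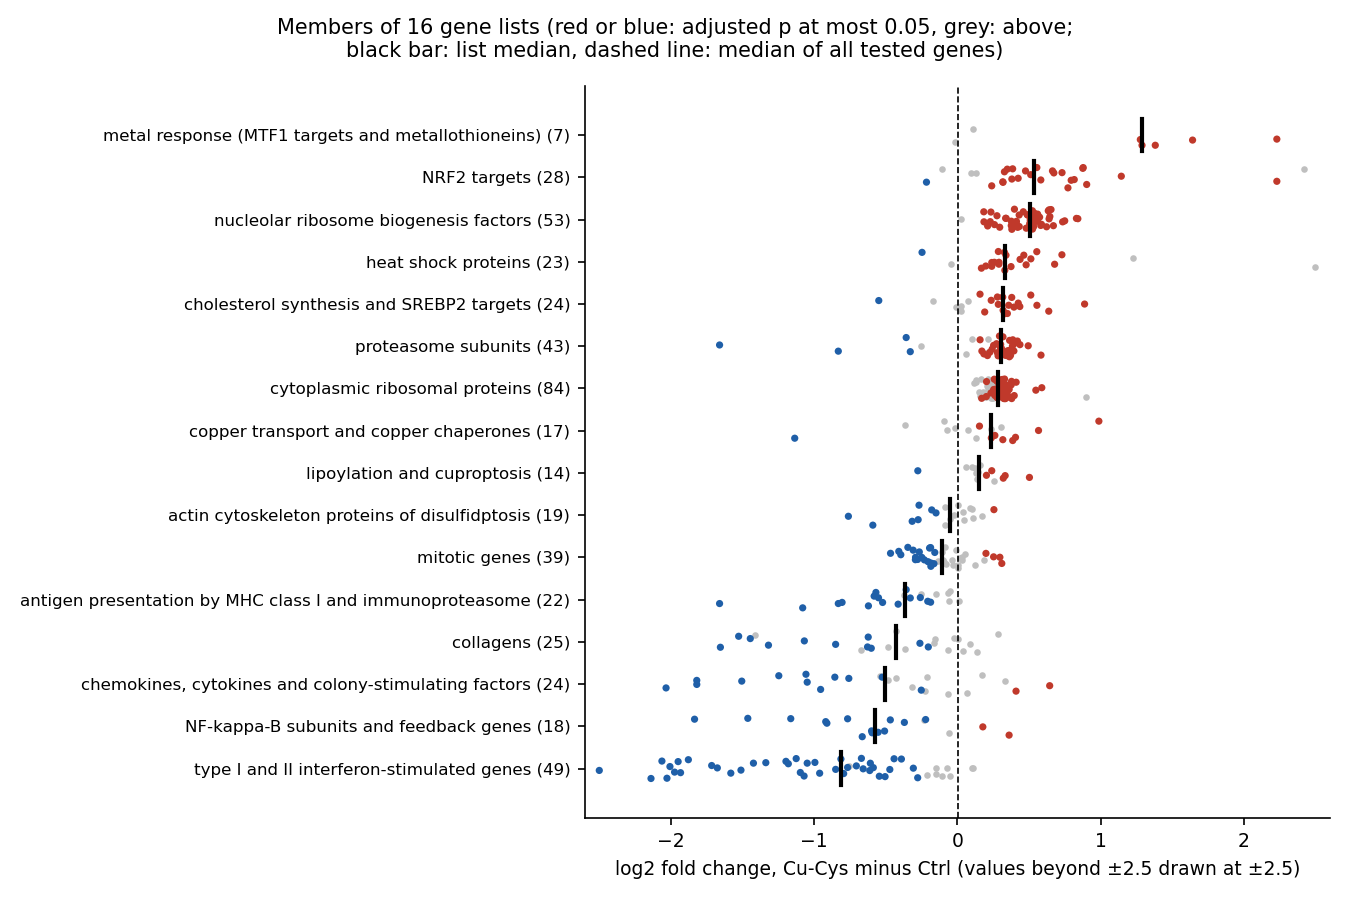
Log2 fold change of Cu-Cys against Ctrl for each tested member of 16 gene lists (points, red or blue where the adjusted p is at most 0.05), with a black bar at the list median and a dashed line at the median of all tested genes. Medians run from 1.29 for metal response genes to -0.81 for interferon-stimulated genes, and none of the 16 medians changed sign under the alternatives run.

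Beneath these changes ran small rises of the machinery of growth. Nucleolar factors of ribosome biogenesis rose almost throughout, with 52 of 53 tested members rising, 0 falling and a median of 0.51. Nhp2, a core protein of box H/ACA snoRNPs, read 40.6, 46.1 and 45.7 against 80.0, 79.4 and 77.8 CPM (0.84 ± 0.09, adjusted p = 4.94e-06), and Mrto4, a ribosome assembly factor, read 55.8, 61.2 and 59.3 against 105, 104 and 105 CPM (0.83 ± 0.08, adjusted p = 1.50e-06). Neither gene had overlapping groups. On the TPM + 1 scale 41 of the 53 rose and 0 fell. All 84 tested cytoplasmic ribosomal proteins had a fitted value above 0, but only 50 rose, with a median of 0.28. This count fell to 15 on the TPM + 1 scale, where the median was 0.12. Of 78 tested mitochondrial ribosomal proteins 46 rose (median 0.26), 14 on the TPM + 1 scale with 1 fall. Of 79 tested genes of the respiratory chain and ATP synthase 21 rose and 0 fell (median 0.17). That share of rises, 26.6%, is near the 22.6% of all tested genes. The list has a median effective length of 358 bases, and in the shortest of the 5 length bins described below 30.6% of genes rose. On the TPM + 1 scale 3 of the 79 rose and 6 fell around a median of 0.00.

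Translation factors rose in 41 of 69 cases and fell in 4 (median 0.20), led by Eef1e1 (0.74), Eif5 (0.57), Eif5a (0.50) and the helicase Eif4a1 (0.49). On the TPM + 1 scale 14 of them rose and 4 fell, with a median of 0.05. Eif5a, which relieves stalled ribosomes, read 763, 790.1 and 796 against 1119.6, 1075 and 1127 CPM. The study also followed Eif2a, Eif2b and Eif5b. Eif2a stood at 0.17 (adjusted p = 0.0144), Eif2b1, taken here as the subunit to give for Eif2b, at 0.24, and Eif5b at -0.01 (adjusted p = 0.891). Eif5b, the GTPase that joins the ribosomal subunits, read 222, 216 and 218 against 220.0, 217 and 215 CPM. Proteasome subunits rose in 34 of 43 cases (median 0.30), and the 4 that fell include the immunoproteasome subunits Psmb8 and Psmb9 described above. On the TPM + 1 scale 20 proteasome subunits rose and 5 fell, with a median of 0.15. Spliceosome and hnRNP proteins rose in 52 of 79 cases and fell in 2 (median 0.22), but 9 rose on the TPM + 1 scale, where the median was 0.06. Of 23 tested heat shock proteins 19 rose and 1 fell (median 0.33), with the inducible Hspa1b (0.73, at 18.7, 20.9 and 19.1 against 28.1, 30.5 and 38.8 CPM), the mitochondrial chaperonins Hspe1 (0.68) and Hspd1 (0.51) and the cytosolic Hsph1 (0.55) among the rises. On the TPM + 1 scale 9 heat shock proteins rose and 1 fell, with a median of 0.18. Hspa1b stood at 10.37 in Cadict libraries and shares near-identical sequence with Hspa1a.

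Genes of sterol and sugar metabolism rose in most cases. Of 24 tested cholesterol synthesis genes 18 rose and 1 fell (median 0.32), though 6 rose on the TPM + 1 scale, where the median was 0.17. Mvd, which makes isopentenyl diphosphate, read 20.1, 21.8 and 17.6 against 38.4, 33.6 and 38.1 CPM (0.89 ± 0.08, adjusted p = 1.57e-06), with no overlap. Msmo1 (0.64), Hsd17b7 (0.56) and Cyp51 (0.51) followed, and the lipoprotein receptor Lrp8 (0.85) rose as well. The median of the same list was -0.21 in Cadict libraries against Ctrl, beside a median of -0.13 over all tested genes in that comparison. Of 20 tested glycolysis genes 13 rose and 3 fell (median 0.23), including the glucose transporter Slc2a1 (0.65), the lactate transporter Slc16a1 (0.53) and hexokinase Hk2 (0.49). On the TPM + 1 scale 8 glycolysis genes rose and 3 fell, with a median of 0.08. Targets of the integrated stress response divided, with 16 of 37 rising and 10 falling around a median of 0.10 that was negative on the TPM scales. The phosphatase subunit Ppp1r15a rose by 0.70 and Stc2 by 0.75, and Nupr1 fell by 0.68 and Sesn2 by 0.49. Of the unfolded protein response genes, 6 of 27 rose and 6 fell.

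Of 39 tested mitotic genes 18 fell and 4 rose (median -0.11). Mki67, the proliferation marker, fell by 0.47, Aurkb by 0.41, Top2a by 0.39 and Nuf2 by 0.35. The 4 rises were Cdc20 (0.31), Aurka (0.30), Bub3 (0.25) and Ccnb1 (0.20), named after their values were seen. Giant cytoskeletal and scaffold proteins fell in 18 of 40 cases and rose in 1 (median -0.18), with Myo18a at -0.72 and Macf1 at -0.48.

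Cd274, which encodes the checkpoint ligand PD-L1 followed in the study, was low and overlapping. It read 3.03, 2.81 and 3.27 CPM in Ctrl libraries and 3.41, 2.56 and 2.1 CPM in Cu-Cys libraries, a log2 fold change of -0.18 ± 0.17 (adjusted p = 0.439). Of 12 tested checkpoint ligands 6 fell and 2 rose (median -0.33). Cd276 (B7-H3, -0.80) and Tnfrsf14 (HVEM, -0.77) fell, while Pvr (CD155, 0.62) and the galectin Lgals3 (0.54) rose.

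Small shifts also followed transcript length. Effective length was taken from the deposited counts and FPKM, and tested genes too low to give one were left out. The others were put in 5 bins of 2205 or 2206 genes, with median lengths of 873, 1707, 2560, 3640 and 5864 bases. The median log2 fold change per bin was 0.12, 0.04, 0.02, -0.01 and -0.06. In the shortest bin 30.6% of genes rose and 11.8% fell, and in the longest 14.0% rose and 30.9% fell. Each Cu-Cys library had its shortest bin above its longest, at 0.10, 0.13 and 0.13 against -0.08, -0.04 and -0.06. Of the cytoplasmic ribosomal proteins 74 lie in the shortest bin, where their median was 0.29, and of the giant scaffold proteins 35 lie in the longest, where their median was -0.19. Both lists thus moved in the direction of their length class and further than its median. Nucleolar factors had a median of 0.48 to 0.53 in each bin. Interferon-stimulated genes had medians of -0.87 to -0.55 over the bins. Mitotic genes had medians of 0.03, 0.16, -0.19, -0.09 and -0.29 from the shortest bin to the longest. Their direction thus differed between bins, each of 6 to 10 genes. The part of transcript length in the list shifts was not tested.

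**Figure D5:**
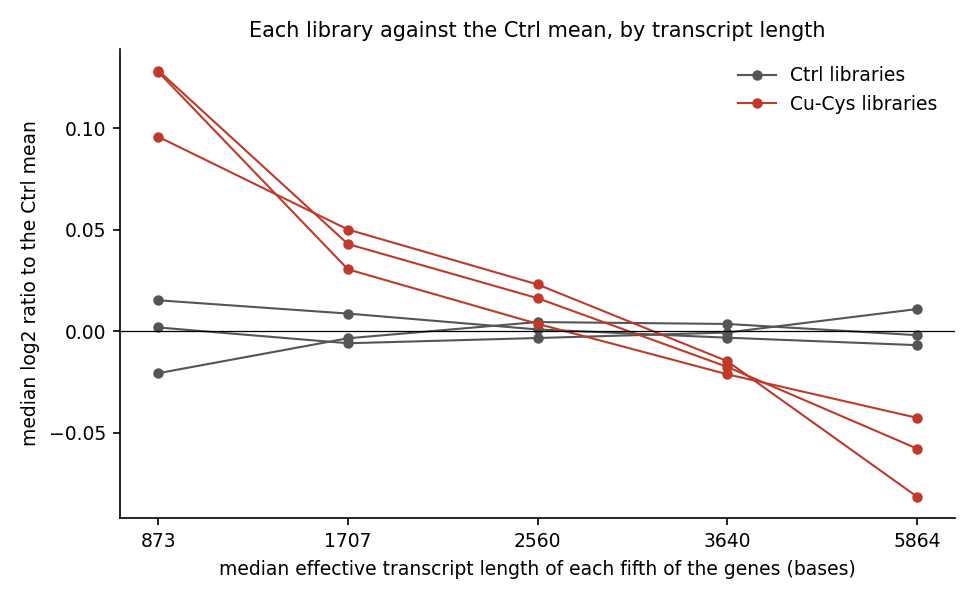
Median log2 ratio of each library to the Ctrl mean (vertical axis) for tested genes in 5 bins of effective transcript length (horizontal axis, median length of the bin in bases, evenly spaced), 1 line a library for the Ctrl and Cu-Cys groups (n = 3 each). The 3 Cu-Cys lines descend from 0.10 to 0.13 in the shortest bin to between -0.08 and -0.04 in the longest, whereas the Ctrl lines stay near 0.

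Relative to Cadict, the called Cu-Cys changes were of mixed depth. Of the 20 genes called higher, the Cadict mean lay above the Cu-Cys mean past 0.05 for 15 and below for 3. Of the 176 called lower, Cadict lay lower still for 89 and above Cu-Cys for 40. These counts are a description, since the Cu-Cys libraries themselves chose the genes. They are not set beside the share of all tested genes that differ between Cadict and Cu-Cys. They therefore do not show whether called genes differ from other genes in this respect. Cadict lay above Cu-Cys for Lcn2, a siderophore-binding protein at -1.13 in Cu-Cys and 1.65 in Cadict, and for Plet1 at -2.29 and 1.29. Cadict libraries had TMM factors of 0.64 to 0.665, against 1.26 to 1.27 in Ctrl libraries, and share the Ctrl libraries of this comparison. Each log2 fold change of Cadict given here depends on that scaling, and none was computed under the alternatives.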

How the data were processed

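Total RNA of MC38 cells was enriched for poly(A) transcripts and sequenced in 9 libraries, 3 each of Ctrl, Cu-Cys and Cadict. The labels name sequencing of DNA nanoballs, the methods of the study an Illumina instrument. For 16509 genes the authors deposited an expected count (reads assigned to the gene by estimation, not normalized), an FPKM and a TPM per library. The submitters' processing notes list HISAT2 2.1.0, Bowtie2 2.3.4.3, RSEM 1.3.1 and the builds GRCm39 and GRCh38.p13, without saying which step used which. The table names the treatments CC and CCGE, read as Cu-Cys by its initials and as Cadict by inference from its components. The 9 deposited columns of normalized counts and 12 columns of averages were not used.

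Expected counts were rounded, which changed 9.77% of entries, and fitted with edgeR 4.0.16 in R 4.3.3 (filterByExpr by group, TMM, quasi-likelihood test, 1 model of the 3 groups, Benjamini-Hochberg over 11949 genes). The limit of 3 counts for a count of 0 covers counting error only. The SEs come from the quasi-likelihood fit and include the spread between libraries. No set test was run, and lists are described by counts and medians. The procedure was tested on simulated data. Alternatives were DESeq2 1.42.0 size factors and its Wald test, library totals, other count filters, the 6 libraries alone, the replicate number as a block, limma 3.58.1 on the log2 of TPM (pseudocounts 1 and 0.1) and FPKM (pseudocount 1), and leaving out each library. Promoter windows of 300 bases were matched by symbol from RefSeq on GRCm38.p6 (9547 of the tested genes).

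The genes compared, the gene lists and the tests were chosen with earlier results of these data known. The naming rule took up to 10 rises and 15 falls with the largest fold change among called genes that averaged 5 CPM or more and did not overlap, up to 4 members of each list with the largest change past 0.05 at that level, and genes that the study follows. Named outside this rule, after their values were seen, were Atp7a, Atp7b, Vim, Krt19, Slc39a6, Mtf1, Gclm, Nqo1, Txnrd1, Ftl1, Fth1, Gsr, Txn1, Slc7a11, Cat, Nfe2l2, Keap1, Prl2c2, Prl2c3, Sco2, Steap4, Atox1, Gbp2, Ifih1, Irf7, Ifit2, Bst2, Ifnar1, Ifngr1, Ptpn2, Psmb9, H2-K1, H2-D1, H2-Q4, H2-T23, H2-T22, H2-M3, B2m, Nfkbia, Rela, Il11, Tnfsf9, Csf2, C3, Col6a4, Col6a1, Col4a1, Col6a3, Fn1, Timp1, Islr, Lcn2 and Plet1. Some genes that the rule takes are not reported here.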

Additional observations from a re-analysis of the deposited data

How the results depend on the processing

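Against 20 genes called higher and 176 called lower, limma gave 9 and 108 on the log2 of TPM + 1 and 11 and 60 on the log2 of FPKM + 1. On the log2 of TPM + 0.1 it gave 19 and 184. Genes higher past 0.05, 2701 here, numbered 897 and 796 on TPM (pseudocounts 1 and 0.1) and 1675 on FPKM, scales on which the median of all genes lay lower. The remaining alternatives kept each of the 4 counts within 1.5 times: 26 and 166 called with DESeq2 size factors, 18 and 209 with library totals, 24 and 216 with the 6 libraries alone, 19 and 169 with DESeq2's Wald test, 25 and 180 without a filter and 16 and 159 with at least 10 counts in each of the 6 libraries. Leaving out 1 library at a time gave 15 to 26 called higher, 128 to 203 called lower, 2080 to 3418 higher and 2121 to 3208 lower past 0.05. Of the 217 genes the naming rule took, no direction reversed in 3990 values under the alternatives; 132 lost and 9 gained significance. The zinc transporter Slc30a7, outside that rule, changed sign on the TPM scales, to -0.0013 with either pseudocount. Of 48 list medians, 11 took another sign under some alternative, none of them larger in size than 0.15 in the values reported.

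With the replicate block 20 and 163 genes were called and 2609 and 2532 were past 0.05. Same-numbered Ctrl and Cu-Cys libraries deviated together with correlations of 0.15, -0.155 and -0.0565 over 9706 genes, so the numbers were not taken as pairs.

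The 3 libraries a group limit the precision. Genes under about 1 CPM have wide errors, doses and durations are unknown, and batch and treatment cannot be told apart because the labels give no batch.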

Other observations

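Further gene groups moved in small steps with Cu-Cys. Of 20 tested EGF receptor ligands and MAP kinase feedback genes 8 rose and 3 fell (median log2 fold change 0.19). On the TPM + 1 scale 3 rose and 3 fell, with a median of 0.04. The phosphatase Dusp5 (0.75), the ligand Hbegf (0.73) and Spry4 (0.50), a brake on receptor signalling, rose, and Dusp1 fell by 0.26. Of 36 tested lysosomal genes 16 rose and 6 fell (median 0.14, but -0.01 on the TPM scale). The alpha-galactosidase Gla (0.94), the sialidase Neu1 (0.78) and the cholesterol transporter Npc1 (0.37) rose, and the lysosomal regulator Tfeb fell by 0.48. Of 20 tested HIF-1 targets 9 rose and 3 fell (median 0.15, but -0.0014 to -0.0013 on the TPM scales), with the adenylate kinase Ak4 at 0.68 and Egln3 at 0.52 among the rises and Ndrg1 at -0.50 among the falls.

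In lists of receptors and guidance genes, falls outnumbered rises. Over all tested genes 22.6% rose and 22.4% fell. The lists hold long transcripts, with median effective lengths from 3898 bases (Notch and Wnt) to 5539 bases (semaphorins). In the length bins with medians of 3640 and 5864 bases, 26.5% and 30.9% of all genes fell, and 21.5% and 14.0% rose. The part of transcript length in these falls was not tested. Of 26 tested receptor tyrosine kinases 10 fell and 3 rose (median -0.12), with Erbb3 at -1.15, Pdgfra at -0.78 and Pdgfrb at -0.38 lower and Met at 0.41 higher. Of 29 tested semaphorins, plexins, netrins and slits 13 fell and 3 rose (median -0.17), with the secreted ligands Sema3b at -0.89 and Sema3c at -0.82 lower and Slit2 at 0.70 higher. Of 32 tested Notch and Wnt genes 11 fell and 2 rose (median -0.15), with Wnt10b at -0.88 lower. Of 34 tested TGF-beta and BMP genes 10 fell and 8 rose, around a median of 0.02 that was negative with library totals, at 10 or more counts, with the 6 libraries alone and on the TPM and FPKM scales. The receptors Tgfbr3 (-0.71) and Tgfbr2 (-0.59) fell and the target Id2 (0.77) rose. Dusp1, Tfeb and Id2 were chosen after their values were seen.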
